A study of Mus musculus with 6 samples.

Results

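The polyamine genes described here encode the enzymes that make, interconvert and break down putrescine, spermidine and spermine, and the proteins that control the first of these enzymes. The list named 10 genes. A gene was counted as measured where the array carried a probe set listing that gene alone, and where there were several such probe sets, 1 was chosen by its highest mean over the 6 arrays. By this rule 6 of the 10 genes were measured (Odc1, Srm, Oaz2, Azin1, Sat1 and Smox), out of 19938 genes with a probe set of their own. Sms and Oaz1 appeared only on probe sets shared with a pseudogene, and Amd1 and Paox have no value here. All 6 were brighter than the floor set for dim signal, the 40th percentile of probe set means (5.81 on the log2 scale). The nearest to it was Oaz2, with a mean over the 6 arrays of 6.97.

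The cells were colonic epithelial cells of wild-type male BALB/c mice aged 6 weeks, sorted as EpCAM-positive and CD45-negative. All mice had fasted for 36 h and were then re-fed for 24 h. The comparison sets 3 samples from mice re-fed without treatment against 3 from mice that received antibiotics while they were re-fed. The labels call the samples biological replicates and say neither how many mice each holds nor which antibiotics were given, and fasted or continuously fed mice were not analysed here. Each sample was hybridised to 1 Affymetrix array.

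Polyamines are small cations that bind nucleic acids and ribosomes and are needed for growth, and cells of the intestinal lining, which divide rapidly, depend on them. Ornithine decarboxylase makes putrescine from ornithine. Decarboxylated S-adenosylmethionine then supplies the aminopropyl groups that turn putrescine into spermidine and spermidine into spermine. Antizymes bind ornithine decarboxylase and send it to the proteasome, and antizyme inhibitor frees it. In the other direction, acetylation and oxidation lead from spermine back to putrescine. Odc1, the antizymes and Sat1 are known for control at the level of translation and protein stability, which an array of RNA does not measure. In the colon, food and gut bacteria are further sources of polyamines.

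Srm, which encodes spermidine synthase, was the 1 polyamine gene with a clear separation of the groups, and it lay higher with antibiotics. The other 5 measured genes differed by no more than 0.32 on the log2 scale in either direction, and each of their 95% intervals included 0. None of the 6 passed the test over all genes (limma, Benjamini-Hochberg adjusted p under 0.05), where 7 of 12071 genes, or 0.0580%, passed. Of the 6, 1 had an unadjusted p under 0.05, against 12.6% of all genes tested. The median difference, antibiotics minus re-fed, was -0.11 over the 6 genes and 0.0033 over all genes. The members were listed when results of these data, that of Srm among them, were already known, so their counts are a description.

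**Figure D1:**
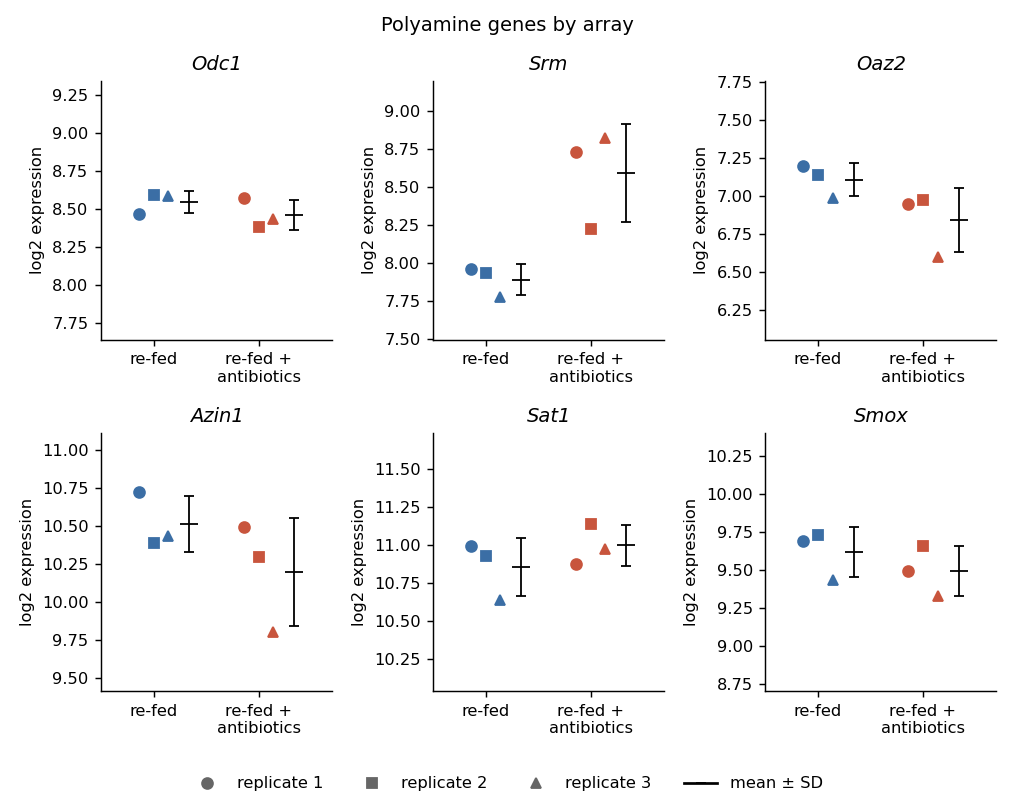
Log2 expression (vertical axis, of equal span in every panel) of the 6 measured polyamine genes on the 3 re-fed arrays (blue) and the 3 arrays with antibiotics (red), marked by replicate number, with the group mean and SD in black. The groups stand clear of each other for Srm, higher with antibiotics, and narrowly for Oaz2, lower with antibiotics, and they overlap for Odc1, Azin1, Sat1 and Smox.

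Odc1 encodes ornithine decarboxylase, the enzyme that commits ornithine to the pathway. On its kept probe set it had similar means in both groups after quantile normalisation. Its log2 expression was 8.47, 8.59 and 8.59 on the re-fed arrays (replicates 1 to 3, in this order throughout), and 8.57, 8.38 and 8.44 on the arrays with antibiotics. The groups overlapped, with the highest and the lowest array a small step apart. The means were 8.55 ± 0.071 without and 8.46 ± 0.098 with antibiotics (SD, n = 3 per group). The difference was -0.084 (SE 0.10, 95% interval -0.32 to 0.15, adjusted p = 0.777). It was -0.24 (SE 0.13) with median centring and -0.27 (SE 0.27) with the deposited scaling, where the median of all genes also lay lower, at -0.080 and -0.12, so its size depends on the scaling.

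A second probe set listing Odc1 alone, not kept because its mean over the 6 arrays was 6.95 against 8.51, read 6.52, 7.19 and 7.35 without and 6.91, 6.91 and 6.82 with antibiotics. Its lowest and highest values both came from re-fed arrays, and the difference was -0.13. The kept and the other probe set thus gave the same sign, but re-fed replicate 1 stood well below its group on the second alone. No reason for that was tested. The genome positions of the 2 probe sets were not compared either, so which of them reads the Odc1 locus is not known here. By number, the kept probe set (10582295) falls between those of Smox, on chromosome 2, and Oaz2, on chromosome 9. The other (10394770) falls before that of Smox, and the Odc1 promoter is on chromosome 12. If such numbers follow genome order, which was not tested, the kept probe set may read another locus. The values given for Odc1 carry this doubt.

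The stretch just upstream of Odc1 is shown because this gene opens the pathway. It covers the 250 bases before the RefSeq start on the plus strand, chr12:17544623-17544872 in GRCm38.p6. Capitals mark the GC box letters, GGGCGG or its reverse complement CCGCCC, searched after the sequences had been seen.

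Odc1: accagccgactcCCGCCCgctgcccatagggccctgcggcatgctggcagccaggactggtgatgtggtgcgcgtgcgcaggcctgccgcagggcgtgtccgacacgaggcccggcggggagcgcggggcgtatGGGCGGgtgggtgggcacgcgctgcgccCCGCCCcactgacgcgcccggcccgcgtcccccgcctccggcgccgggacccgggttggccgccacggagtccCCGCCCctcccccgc

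This window, with the 50 bases after the start, held 4 GC box matches and 0 matches of CACGTG, the E-box letters that Myc and its partner Max are known to bind, which read the same on both strands. Of all 32851 RefSeq promoter windows of this length, 35.7% held a GC box and 7.15% an E-box by these letters. Promoter windows were listed for 8 of the 10 genes, among them 4 of the 6 measured ones (Odc1, Oaz2, Sat1 and Smox), and of their 10 windows 1, at Sms, held CACGTG and 8 held a GC box. Srm and Azin1 had no window listed, and sequence outside the windows, introns among it, was not searched. Such matches describe the letters alone.

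Srm encodes the aminopropyltransferase that converts putrescine to spermidine, and is also known as a target of Myc. Its log2 expression was 7.96, 7.94 and 7.78 on the re-fed arrays and 8.73, 8.23 and 8.83 on those with antibiotics. Every array with antibiotics stood above every array without, and antibiotics replicate 2 was the closest to the re-fed arrays. The means were 7.89 ± 0.10 and 8.60 ± 0.32 (SD, n = 3 per group). The difference of 0.70 (SE 0.16, 95% interval 0.35 to 1.06) is a 1.63-fold higher level. Of the 12071 genes tested, 15 had a larger difference in that direction, higher with antibiotics. By limma's unadjusted p, which counts both directions, Srm ranked 116. In limma's test over all genes Srm had an unadjusted p of 0.00144 and an adjusted p of 0.15. Groups did not overlap, with the antibiotics arrays higher, for 8.88% of all genes.

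The call for Srm changed with 1 alternative. With arrays weighted by limma according to their scatter, it passed (0.78, adjusted p = 0.00642), in a fit that called 1169 genes, or 9.68% of those tested. As deposited, 4 arrays (replicates 2 and 3 without antibiotics, replicates 1 and 2 with them) shared far more identical numbers than the rest and were taken as 1 common normalisation run. Within these 4 arrays, with the normalisation still that of all 6, Srm differed by 0.62 (SE 0.17, adjusted p = 0.14 in limma's test). In that common run none of the 6 polyamine genes passed, where 0.447% of all genes did. Leaving out each array in turn kept the difference of Srm between 0.59 and 0.89, with adjusted p from 0.0695 to 0.424.

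**Figure D2:**
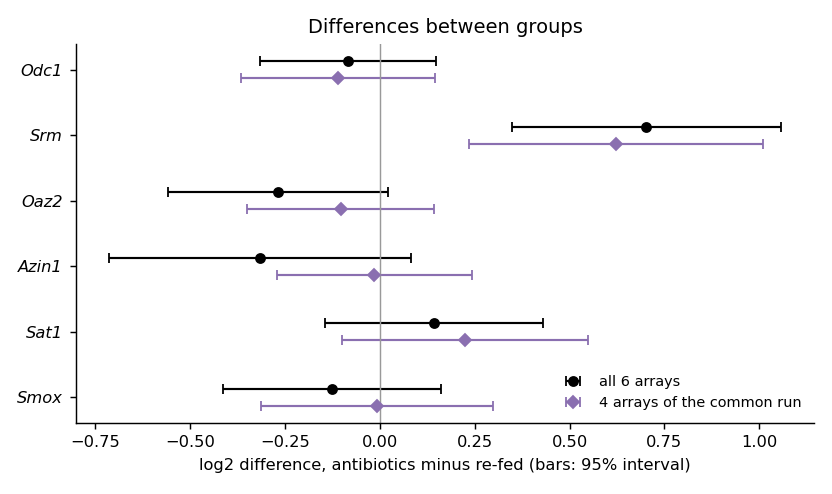
Log2 difference between the groups, antibiotics minus re-fed (horizontal axis), for each measured polyamine gene over all 6 arrays (black circles) and within the 4 arrays of the common run (purple diamonds), with 95% intervals from limma. Srm lies above 0 in both, at 0.70 and 0.62, and the intervals of the other 5 genes cross 0.

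Sms, spermine synthase, adds the next aminopropyl group. The array carried 2 probe sets that list Sms together with the pseudogene Gm8234, and they give no level for Sms alone. One read 5.77, 5.96 and 5.76 on the re-fed arrays and 6.00, 5.78 and 6.33 on those with antibiotics. The other read 5.77, 5.67 and 5.51, against 5.77, 5.52 and 6.15. On both, antibiotics replicate 3 was the highest array and the groups overlapped, and the second had a mean of 5.73 over the 6 arrays, under the floor for dim signal. These probe sets were not tested.

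The control of ornithine decarboxylase was represented by Oaz2, an antizyme, and Azin1, the antizyme inhibitor. Oaz2 stood at 7.19, 7.14 and 6.99 on the re-fed arrays and at 6.95, 6.97 and 6.60 on those with antibiotics. All antibiotics arrays were below all re-fed arrays, though the lowest re-fed and the highest antibiotics array nearly met, and replicate 3 with antibiotics stood apart below. With Srm, Oaz2 made 2 of the 6 measured genes whose groups did not overlap, and 19.6% of all genes were so separated in one direction or the other. The difference was -0.27 (SE 0.13, 95% interval -0.56 to 0.022, adjusted p = 0.43). It was -0.15 without antibiotics replicate 3 and -0.10 in the common run.

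Azin1 resembles ornithine decarboxylase in sequence but has lost its activity, and releases the enzyme by binding antizyme in its place. Its log2 expression was 10.72, 10.38 and 10.43 without antibiotics, and 10.49, 10.29 and 9.80 with them. The groups overlapped, and the low antibiotics mean rested mostly on replicate 3. The difference was -0.32 (SE 0.18, 95% interval -0.71 to 0.082, adjusted p = 0.49). Without antibiotics replicate 3 it was -0.12, and in the common run -0.014. That array's deposited values took 10829 distinct numbers over 35557 probe sets, where the other arrays held at least 34568, and the part this plays in Oaz2 and Azin1 was not tested.

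Oaz1, the most widely expressed antizyme, had 2 probe sets, both shared with its pseudogene Oaz1-ps, and so no level of its own here. They read 10.38, 10.15 and 10.10 without and 10.44, 10.24 and 10.30 with antibiotics, and 10.80, 10.54 and 10.46 without and 10.81, 10.64 and 10.90 with antibiotics. On both the groups overlapped, and the differences were 0.12 and 0.18, with no test run.

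On the side of turnover, Sat1 encodes spermidine/spermine acetyltransferase, which tags polyamines for export or oxidation and is known to be induced when polyamines are in excess. Its log2 expression was 10.99, 10.92 and 10.64 on the re-fed arrays and 10.87, 11.14 and 10.97 on those with antibiotics. The groups overlapped, with re-fed replicate 3 lowest and antibiotics replicate 2 highest. The difference was 0.14 (SE 0.13, 95% interval -0.14 to 0.43, adjusted p = 0.666). With the scaling as deposited it was -0.027, so its sign depends on the scaling.

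The sequence upstream of Sat1, the gene that opens the return path, is given for the same reason as that of Odc1. It spans the 250 bases before the RefSeq start on the minus strand, chrX:155216450-155216699 in GRCm38.p6, printed 5′ to 3′ along that strand with GC box letters in capitals.

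Sat1: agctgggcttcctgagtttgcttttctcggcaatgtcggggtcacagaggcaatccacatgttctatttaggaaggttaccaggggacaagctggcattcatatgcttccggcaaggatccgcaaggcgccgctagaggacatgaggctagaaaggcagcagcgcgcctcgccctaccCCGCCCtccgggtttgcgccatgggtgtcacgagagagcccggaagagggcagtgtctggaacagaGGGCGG

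The Sat1 window of 300 bases held 2 GC box matches and 0 matches of CACGTG.

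Smox encodes spermine oxidase, which turns spermine straight into spermidine and releases hydrogen peroxide. It stood at 9.69, 9.73 and 9.43 without antibiotics and at 9.49, 9.66 and 9.33 with them. Replicate 3 was the lowest array of both groups, and the groups overlapped. The difference was -0.13 (SE 0.13, 95% interval -0.41 to 0.16, adjusted p = 0.716), and -0.0074 in the common run. Neither gene of turnover thus differed beyond the spread between arrays, and Paox, the oxidase of acetylated polyamines, was not analysed here.

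Setting 1 gene against another on the same array removes any shift that the whole array still shares after quantile normalisation. The deviation of Srm from its mean over 6 arrays, minus that of Smox, was -0.42, -0.48 and -0.34 on the re-fed arrays and 0.55, -0.12 and 0.81 on those with antibiotics. The groups did not overlap, and their means differed by 0.83. Against Sat1, Srm gave -0.35, -0.31 and -0.18 without and 0.54, -0.23 and 0.53 with antibiotics. Here the groups overlapped through antibiotics replicate 2, in which Sat1 was at its highest and Srm at its closest to the re-fed arrays. Odc1 minus Sat1 also overlapped, with a difference of -0.23 between the group means. These are values without a test, and the contrasts with Srm reuse its difference, which was known when they were chosen.

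**Figure D3:**
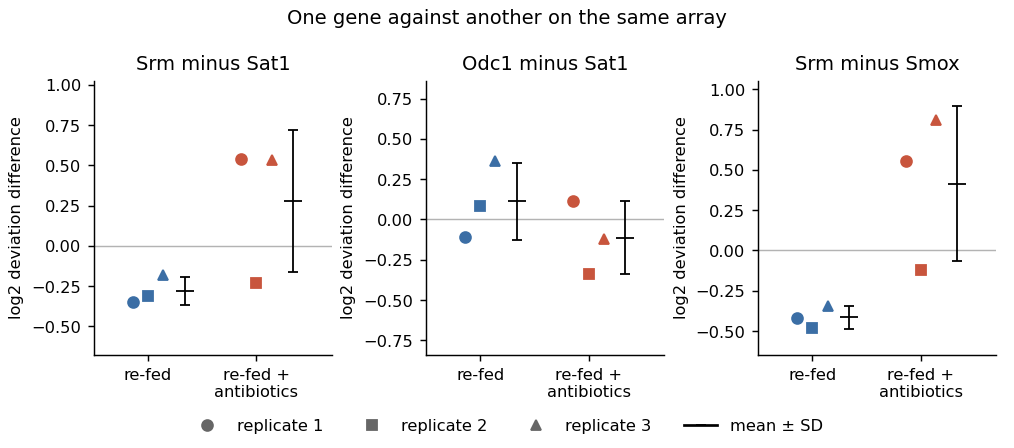
Difference between 2 genes' log2 deviations from their 6-array means on the same array (vertical axis), for re-fed arrays (blue) and arrays with antibiotics (red), marked by replicate number, with group mean and SD in black. Srm minus Smox separates the groups, while antibiotics replicate 2 falls within the re-fed range for Srm minus Sat1.

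The rest of the pathway was read from 5 lists: supply of arginine and ornithine, supply of S-adenosylmethionine with methionine salvage, the hypusine pathway that modifies the translation factor Eif5a with spermidine, polyamine transport, and other polyamine enzymes. Of their 41 genes, 35 were measured by a probe set of their own and 23 were tested. None passed over all genes in limma's test, 13 lay above 0 and 10 below, and their median difference was 0.043, against -0.070 with the deposited scaling and -0.026 in the common run. An unadjusted p under 0.05 was reached by 2 of the 23, both higher with antibiotics, against 12.6% of all genes. With array weights 3 of the 23 passed, these 2 among them, against 9.68% of all genes.

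These were Aoc1 and Slc7a1. Aoc1, diamine oxidase, degrades putrescine and histamine outside the cell, and stood at 12.07, 11.83 and 11.91 without and 12.25, 12.17 and 12.19 with antibiotics. Its groups did not overlap, and the difference was 0.27 (SE 0.10, adjusted p = 0.344). Slc7a1 carries arginine, ornithine and lysine into cells, and read 7.17, 6.93 and 6.84 against 7.56, 6.98 and 7.60. Its groups overlapped through antibiotics replicate 2, and the difference was 0.40 (SE 0.17, adjusted p = 0.38).

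By list, the median difference was 0.21 over 7 genes of arginine and ornithine supply, -0.055 over 5 genes of S-adenosylmethionine supply and salvage, 0.11 over 3 genes of the hypusine pathway and 0.043 over 7 genes of transport. Aoc1 was the 1 tested gene among the other polyamine enzymes. Each of the 4 larger lists held genes on both sides of 0.

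The Myc network, whose central factor is known to act on Odc1 and Srm, had a median of 0.073 over 10 genes, and -0.045 with the deposited scaling, and none passed. Mxd1, a partner of Max that opposes Myc, stood at 12.63, 12.50 and 12.57 without and 12.26, 12.43 and 12.01 with antibiotics. Its groups did not overlap, and the difference was -0.33 (SE 0.12, adjusted p = 0.334), or -0.22 without antibiotics replicate 3 and -0.19 in the common run. Myc itself, named after its values were seen, read 7.52, 7.26 and 6.78 without and 7.54, 7.12 and 8.10 with antibiotics. It overlapped between the groups and differed by 0.40 (SE 0.25, adjusted p = 0.546), a value that was 0.14 without antibiotics replicate 3, 0.20 without re-fed replicate 3 and 0.63 without antibiotics replicate 2.

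**Figure D4:**
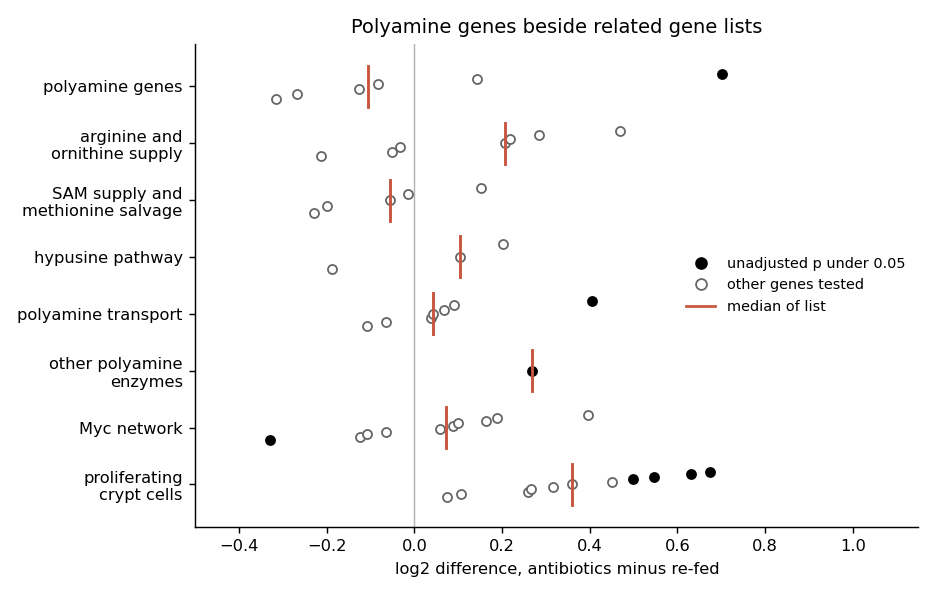
Log2 difference, antibiotics minus re-fed (horizontal axis), of each gene tested in the polyamine set, in 5 lists of the surrounding pathway, in the Myc network and among markers of proliferating crypt cells, with filled points for an unadjusted p under 0.05 and a red bar for each list's median. Srm at 0.70 stands apart from the other polyamine genes, and all 11 proliferation markers lie above 0.

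Like Srm, markers of proliferating crypt cells had higher means with antibiotics. All 11 that were measured, of 12 listed, lay above 0, with a median of 0.36, and 4 had an unadjusted p under 0.05, against 12.6% of all genes, though none passed. With array weights 3 of the 11 passed, against 9.68% of all genes. The median was 0.24 with the deposited scaling and 0.11 in the common run, where 9 of the 11 lay above 0. It was 0.12 without antibiotics replicate 3, with 8 of the 11 above 0, and 0.55 without antibiotics replicate 2. Their mean deviation from the 6-array mean was -0.25, -0.14 and -0.17 on the re-fed arrays and 0.12, -0.19 and 0.64 on those with antibiotics. Antibiotics replicate 2, which had the lowest Srm of its group, lay within the re-fed range here, and replicate 3, which had the highest Srm, lay highest. In RNA from a whole sorted population, more cells of a type and more RNA per cell cannot be told apart, and the part of proliferating cells in the difference of Srm was not tested.

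**Figure D5:**
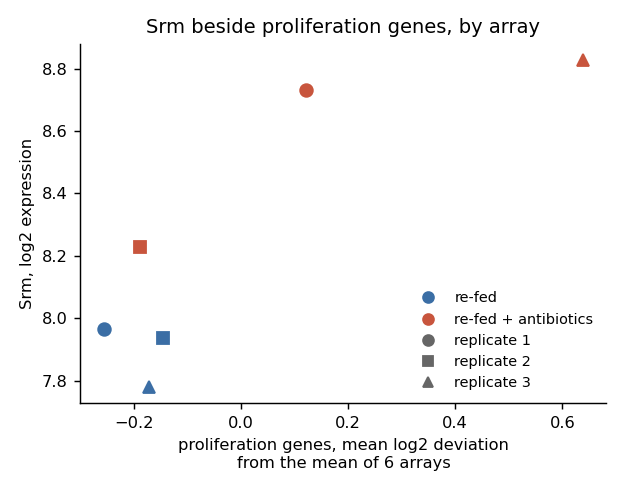
Srm log2 expression (vertical axis) against the mean log2 deviation of 11 proliferation genes from their 6-array means (horizontal axis), 1 point per array, blue for re-fed and red for antibiotics, with shapes for replicate numbers. Antibiotics replicate 2 has proliferation values within the re-fed range and Srm of 8.23, above the re-fed arrays.

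The labelled cell type was checked against its markers. Epcam stood at 12.16 ± 0.11 without and 12.12 ± 0.065 with antibiotics, and all 8 epithelial markers were above the floor for dim signal. All 8 lay below 0, or 6 of them in the common run, with a median of -0.11 over the 6 arrays. An unadjusted p under 0.05 was reached by 2 of the 8, against 12.6% of all genes. Of 9 leukocyte markers measured, 8 were dim, among them Ptprc, which encodes CD45, at 5.30 to 5.54 on every array, and Cd3e, a marker of T cells, was the 1 tested. Its log2 expression ran from 6.16 to 6.70 without and from 6.03 to 6.42 with antibiotics. Absorptive colonocyte markers had a median difference of -0.072 over 8 genes, with 2 above 0 and 6 below. Of the 8, 3 reached an unadjusted p under 0.05, against 12.6% of all genes, and all 3 were lower with antibiotics. Their groups did not overlap, as for 19.6% of all genes in either direction. These, named after their values were seen, were the sodium/proton exchanger Slc9a3 (-0.63), the sodium channel subunit Scnn1a (-0.57) and the water channel Aqp8 (-0.29). Goblet cell markers had a median of -0.13 over 7 genes and stromal and endothelial markers of 0.15 over 5. Each of these lists had 1 gene at an unadjusted p under 0.05, lower with antibiotics, against 12.6% of all genes. Of the 3 small-intestinal markers tested, Fabp2 differed by -0.79 (SE 0.38), Lct by 0.044 and Apoa4 by 0.023, with no unadjusted p under 0.05. No gene of these 4 lists passed over all genes. Their part in the values of the polyamine genes was not tested.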

How the data were processed

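Log2 expression values of 35557 probe sets were deposited for the 6 arrays. The authors made them with RMA, which corrects background, normalises by quantiles and summarises probes, per the submitters' processing notes. The RMA version, the annotation and the genome build were not given in the sources used here. Labelling started from 6 µg of total RNA, per the labels' protocols. Because array medians ran from 5.63 to 6.17, the values were quantile-normalised again over the 23410 probe sets with a gene. Genes came from the platform annotation: 21789 probe sets named 1 gene, 1621 several, and 12147 are unnamed here. Each of 19938 genes was represented by the probe set whose mean over the 6 arrays was highest. Probe sets under the 40th percentile of means were left out as dim, which left 12071 genes.

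Groups and replicate numbers came from the sample titles. The comparison used limma 3.58.1 under R 4.3.3 (lmFit, eBayes, no block, two-sided, Benjamini-Hochberg adjustment over all genes tested, threshold 0.05). The procedure was tried on simulated data with independent noise, alike on all arrays. That simulation held no separate normalisation runs, so it does not cover this feature of the arrays. Intervals are limma's moderated 95% intervals, and each ± is an SD over 3 arrays. The number of arrays limits the precision, and p-values measure only the spread between these samples. All members were named whatever their values. From the other pathway lists up to 3 genes with an unadjusted p under 0.05 were named, and marker lists were given by counts, with some genes also named. Members, lists, tests and alternatives were chosen with earlier results of these data known. Scaling, the filter on dim genes, array weights, the normalisation run, a replicate block, an intensity trend, the probe set rule and leaving out each array were varied. The common run was inferred from shared values, 372 to 435 per pair of its arrays against 42 to 198 for other pairs, not from a label. Promoter windows are from RefSeq, GRCm38.p6, matched by symbol.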

Additional observations from a re-analysis of the deposited data

How the results depend on the processing

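Of 90 differences, those of 6 polyamine genes under 15 alternatives, 88 kept their sign and their side of the threshold. The exceptions were Sat1, at -0.027 with the deposited scaling, and Srm, at 0.78 with array weights, the 1 alternative in which any polyamine gene passed (1 of 6). Srm ranged from 0.52 with the deposited scaling to 0.89 without antibiotics replicate 2. Of the other genes, Odc1 ranged from -0.27 to -0.036, Oaz2 from -0.36 to -0.10, Azin1 from -0.49 to -0.014 and Smox from -0.31 to -0.0074, while Sat1 reached up to 0.22. Their weakest values came from array weights for Odc1 and from the common run for the other three, and Odc1, Oaz2, Azin1 and Smox all lay lowest with the deposited scaling, which moved the median of all genes to -0.12. The causes were not tested.

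Over all genes, 7 passed, against 45 with the deposited scaling and 62 with median centring. The count was 2 with no filter on dim genes, 43 with the stricter filter (60th percentile), 1169 with array weights, 54 in the common run and 43 with an intensity trend. With the deposited scaling the polyamine genes all had the same SE, 0.27. The 45 genes thus rest on the size of the difference rather than on each gene's own spread, unlike the other counts. Leaving out each array in turn gave 0 to 11 genes, none of them a polyamine gene in any of these fits. In the limma fit with 0, without antibiotics replicate 1, 1040 genes had an unadjusted p under 0.05. With the replicate number as a block, 7 genes passed and Srm stayed at 0.70 (adjusted p = 0.249). Same-numbered samples did not deviate together (correlations of -0.06, 0.031 and -0.21). With 3 arrays per group these correlations cannot show whether such samples shared anything beyond a number. Depth does not apply to arrays, and the 3 arrays per group limit what can be told.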
